A study of Mus musculus with 6 samples.

Results

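Antisense genes are transcription units annotated on the strand opposite to another gene, and 268 of them averaged 1 FPKM or more across all 6 libraries of this data set. FPKM counts fragments on a gene, scaled to the gene's length and to the library's depth. The 268 members were selected on this mean level from 2826 genes with the biotype antisense, in a table of 54532 genes of which 13639 reached the same level. The difference between the groups was not used in the choice, except through that mean. Just inside it lay Gm12264 and Gm17111, both at a mean of 1.01 FPKM, and just outside it lay Rbm3os and 4930515G01Rik, both at 0.999 FPKM.

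The libraries were poly(A)-enriched RNA-seq of mouse T cells. The study's methods describe pan T cells from spleens of C57BL/6 mice aged 6 to 8 weeks, kept in IL-2 at 10 ng/mL, activated for 72 h with anti-CD3/CD28 beads and then co-cultured with ID8, a mouse ovarian surface epithelial cancer line. The labels give the treatment as 40 µM cisplatin, a platinum drug that crosslinks DNA, in the cisplatin group (n = 3) and as PBS in the control group (n = 3, titled WT), and the study describes the drug as a pretreatment of the ID8 cells. Activation and co-culture with ID8 were thus common to both groups, and the comparison asked how T-cell RNA differed after co-culture with drug-exposed tumour cells. Nothing in the labels says that the 3 libraries of a group came from separate mice or cultures, so p-values measure the spread between these libraries, which may be technical.

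Reads on genes, rebuilt from FPKM and gene length, ranged from 30606569 to 32169496 per library, and no library stood apart from its group. The T-cell list (20 genes, among them Cd3e, Lck and Trac) summed to 2780 to 2848 FPKM with cisplatin and 1777 to 1884 FPKM in the controls. The ID8 list (17 of 20 genes tested, among them Krt8, Krt19 and Wt1, 15 called lower) summed to 254 to 262 FPKM with cisplatin and 1649 to 1736 FPKM in the controls, and none of its 20 genes was at 0 in all libraries. The B-cell list (10 genes, among them Cd79a and Cd79b, 1 called higher) summed to 3632 to 3708 against 1700 to 1788 FPKM. Most of that sum was Ighm (mean 3220 against 1433 FPKM), while Cd79a averaged 121 against 92.6 FPKM. The myeloid list (9 genes tested, 6 called higher) summed to 128 to 147 against 65.7 to 69.8 FPKM. Its largest gene was Lyz2 (89.7 against 30.8 FPKM), and Cd14 was lower (5.35 against 7.43 FPKM). The hypoxia list (14 of 15 called lower) summed to 527 to 541 against 2411 to 2492 FPKM. These lists moved with the groups, and their part in the antisense results below was not tested. Fewer cells of a type and less RNA per cell cannot be told apart in bulk libraries.

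Antisense RNAs may arise from a shared start region, where both genes are transcribed away from each other (head to head), may run into the far end of the opposite gene (tail to tail), or may lie wholly inside it. Some act on the gene across from them, for example by transcriptional interference or by recruiting chromatin regulators, as Airn does at the imprinted Igf2r locus, whereas many have no known role. Of the 268 members, 140 lay within the opposite-strand gene, 53 were head to head with it, 44 were tail to tail, 10 enclosed it and 21 had no overlapping gene on the other strand. Head to head here meant that the member's start, but not its end, lay inside the opposite gene, whatever the distance between starts. The starts of 2900089D17Rik and Bri3, for example, lay 11749 bases apart, and Airn overlapped Igf2r by 28354 bases. A shared start region is therefore not implied. The overlapping gene, called the partner here, was protein-coding for 243 of the 247 members that had one. Exons of member and partner overlapped in 153 pairs, by a median of 156 bases, and did not overlap in 94. The labels name no step that marks the strand, so reads in shared exons, or from unspliced RNA of a gene with a member inside it, cannot be assigned to a strand.

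The members were short, low-level transcripts. Their gene lengths ran from 151 to 9734 bases with a median of 869.5 bases, and their mean levels from 1.01 to 26.3 FPKM with a median of 1.88 FPKM. A total of 138 lay below 2 FPKM, 37 reached 5 FPKM and 13 reached 10 FPKM. A median of 64 reads per library lay behind a member. They were spread over 20 chromosomes, with 38 on chromosome 11, and 189 carried only a predicted-gene (Gm) name. In sum they took 0.140% to 0.142% of the reads on genes with cisplatin and 0.111% to 0.113% in the controls, so the groups did not overlap in this share.

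After co-culture with cisplatin-treated ID8 cells, 34 members rose and 23 fell at least 2-fold. The tests were limma fits of log2(FPKM + 0.1) on the 15874 genes averaging 0.5 FPKM or more, and a call needed a Benjamini-Hochberg adjusted p under 0.05 together with a 2-fold change or larger. The higher share of members was 12.7%, against 4.11% of all tested genes called higher, and the lower share was 8.58%, against 12.8% of all tested genes called lower. Among the 9313 protein-coding genes between 1 FPKM and the highest member, 1.74% were called higher and 14.6% lower, and among 274 lincRNA genes of at least 1 FPKM, 12 were called higher and 37 lower. The median log2 difference of the members was 0.34, against 0.03 over all tested genes and 0.15 over the lincRNAs. By adjusted p alone, 87 members (32.5%) were higher, against 27.5% of all tested genes, and 31 members (11.6%) were lower, against 29.0% of all tested genes, while 150 passed in neither direction. The libraries of the groups did not overlap for 129 members, 48.1% of them, whereas 64.2% of all tested genes had groups that did not overlap.

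The balance between rises and falls depended on the filter and on the scale. Of the members, 204 had a mean of at least 1 FPKM in both groups, and of these 21 rose and 6 fell. The other 64 passed only through the group in which they were high, so that their direction was set by the filter. Of these, 26 passed through the controls (17 called lower) and 38 through cisplatin (13 called higher). All of the 8 largest falls except Gm16754 were among these 64. So were Gm12932, Gm12764, Gm45510, Gm17173 and Gm31172 of the 8 largest rises. Non-overlapping groups were also a condition for naming these falls and rises, so their separation is description only. When the libraries were scaled to equal levels of the T-cell list, which was itself higher with cisplatin, 39 members were called lower and 2 higher, and the median of all tested genes moved from 0.03 to -0.54. With a pseudocount of 1 in place of 0.1, 9 members were called higher and 11 lower. The ordered plot of the members shows a long tail of falls and a shorter shoulder of rises.

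**Figure D1:**
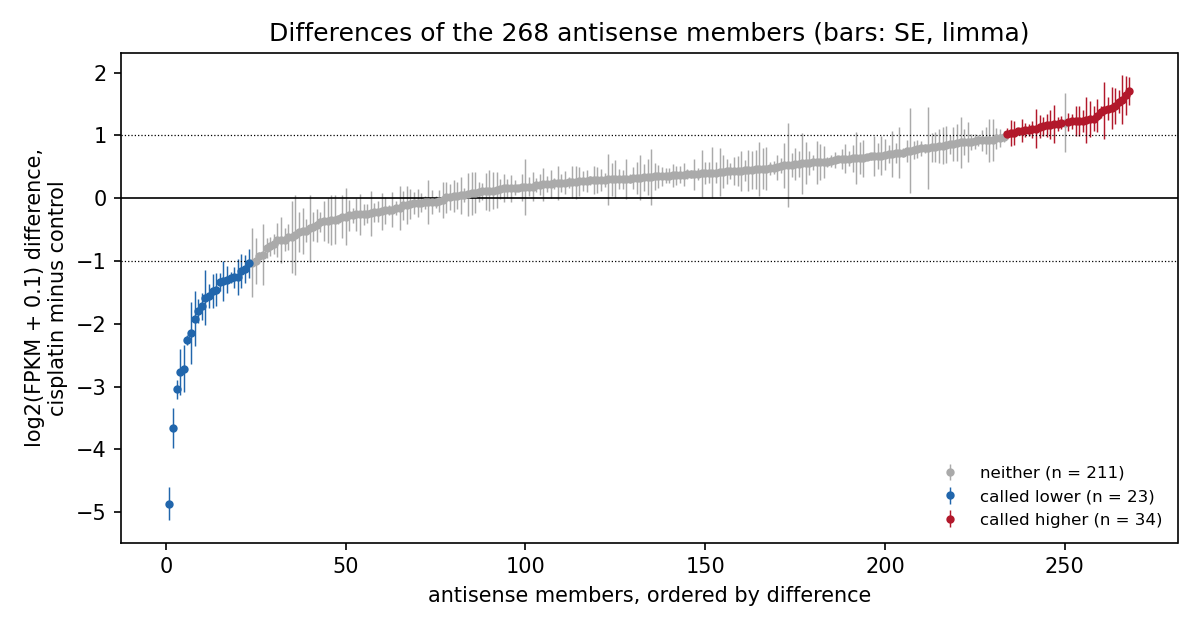
Log2(FPKM + 0.1) difference (cisplatin minus control) of each of the 268 antisense members, in order of size, with bars for the limma standard error and dotted lines at a 2-fold change. The 23 members called lower reach -4.86, whereas the 34 called higher end at 1.71.

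The largest fall was that of Gm44930 (chr7:144742113-144750008, plus strand), which lies inside Ano1 on the opposite strand. Its levels were 0.0338, 0.066 and 0.0338 FPKM in the 3 cisplatin libraries and 5.32, 3.58 and 3.57 FPKM in the 3 control libraries, which corresponded to 1, 2 and 1 reads with cisplatin and 146, 98 and 100 reads in the controls. All control libraries lay far above all cisplatin libraries (log2 difference -4.86, SE 0.27, adjusted p = 9.90e-06), but the member passed the level filter only through the controls. With 4 reads in the cisplatin group against 344 in the controls, the depth-adjusted ratio was 92.8, with a 95% exact interval of 35.9 to 343 that covers counting error only. Ano1, a calcium-activated chloride channel of epithelia and smooth muscle, fell too, from 20.8 ± 0.777 to 1.73 ± 0.186 FPKM (SD, n = 3; log2 difference -3.51, SE 0.08, adjusted p = 3.02e-07). The member fell further than Ano1 (log2 difference of the ratio -1.35, SE 0.25, adjusted p = 0.0215), although their exons do not overlap.

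Next was 9530026P05Rik (chr6:92940329-93272979, plus strand), head to head with Adamts9, a secreted metalloproteinase of the extracellular matrix. Its levels were 0.14, 0.0315 and 0.102 FPKM in the 3 cisplatin libraries and 2.12, 2.41 and 2.18 FPKM in the 3 control libraries (log2 difference -3.65, SE 0.32, adjusted p = 9.21e-05). This member, too, passed the level filter only through the controls. Adamts9 measured 0.858, 0.756 and 0.849 FPKM with cisplatin and 11.7, 11.6 and 11.0 FPKM in the controls (log2 difference -3.65, SE 0.08, adjusted p = 2.28e-07). The pair moved by nearly equal amounts, and the ratio did not pass the test (log2 difference of the ratio -0.01, SE 0.23, adjusted p = 0.983). The promoter windows of both genes are shown because they are the start regions of the head-to-head pair with the largest difference. They were taken from RefSeq on GRCm38.p6, 250 bases before to 50 after the RefSeq start, 5′ to 3′ on the gene's own strand, at chr6:92940332-92940631, plus strand for the member and chr6:92943485-92943784, minus strand for Adamts9. Capitals mark matches on either strand to TGACTCA (an AP-1 site) and CCAAT in the member and to GGGCGG (a GC box, here as CCGCCC) in Adamts9. The RefSeq start of the member lies 253 bases from its start in the table, and that of Adamts9 also differs from the table.
9530026P05Rik: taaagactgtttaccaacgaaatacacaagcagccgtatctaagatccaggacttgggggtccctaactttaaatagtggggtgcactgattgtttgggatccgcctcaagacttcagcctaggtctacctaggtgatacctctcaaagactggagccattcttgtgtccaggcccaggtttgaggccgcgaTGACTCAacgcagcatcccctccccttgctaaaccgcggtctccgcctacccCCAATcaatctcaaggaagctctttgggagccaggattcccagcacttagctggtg
Adamts9: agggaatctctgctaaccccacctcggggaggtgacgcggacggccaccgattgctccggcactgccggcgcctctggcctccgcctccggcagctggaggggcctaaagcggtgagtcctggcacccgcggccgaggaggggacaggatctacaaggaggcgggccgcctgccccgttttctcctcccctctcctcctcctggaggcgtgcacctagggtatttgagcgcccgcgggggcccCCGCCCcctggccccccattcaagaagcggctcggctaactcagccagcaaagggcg
The other motifs searched were TATAAA, the hypoxia-response core ACGTG and the STAT-type site TTCNNNGAA, none of which matched in either window. Of the 32851 promoter windows of RefSeq, 5.20% hold TGACTCA, 37.4% CCAAT and 35.7% GGGCGG, so the last 2 motifs are common, and all matches describe letters, not bound sites.

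Wt1os (chr2:105076538-105126510, minus strand), the antisense RNA named for the Wilms tumour gene Wt1, was among the members with an established name. It measured 0.421, 0.519 and 0.369 FPKM in the 3 cisplatin libraries and 4.46, 3.9 and 4.54 FPKM in the 3 control libraries (log2 difference -3.04, SE 0.16, adjusted p = 7.44e-06). Every control library lay several-fold above every cisplatin library, and Wt1os passed the level filter only through the controls. Wt1, a zinc-finger transcription factor of mesothelium and ovarian surface epithelium, starts on the other strand with 18 bases between the genes and does not overlap Wt1os. It fell alongside, with 5.0, 4.49 and 5.42 FPKM with cisplatin and 49.3, 48.2 and 46.7 FPKM in the controls (log2 difference -3.25, SE 0.07, adjusted p = 2.14e-07). Wt1 was on the ID8 list. The annotated gene that does overlap Wt1os, Gm11060, measured 1.29, 0 and 0 FPKM with cisplatin and 4.16, 4.17 and 1.36 FPKM in the controls and fell (log2 difference -3.63, SE 1.09, adjusted p = 0.0267), and it was listed at 0 in 2 cisplatin libraries.

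Tnfsf13os (chr11:69682138-69691141, plus strand) runs across Tnfsf13 and Tnfsf12, which encode the TNF-family cytokines APRIL and TWEAK, and across the annotated fusion of both, Tnfsfm13. The member measured 0.752, 0.245 and 0.612 FPKM in the 3 cisplatin libraries and 5.14, 3.49 and 3.41 FPKM in the 3 control libraries (log2 difference -2.77, SE 0.36, adjusted p = 6.97e-04). Tnfsf13 fell as well, with 1.08, 0.959 and 0.999 FPKM with cisplatin and 5.19, 5.7 and 6.49 FPKM in the controls (log2 difference -2.40, SE 0.11, adjusted p = 4.87e-06). Tnfsf12 lay at 0.836, 1.08 and 1.02 FPKM with cisplatin and 2.35, 2.29 and 1.51 FPKM in the controls (log2 difference -0.98, SE 0.21, adjusted p = 0.00665), short of a 2-fold change. The rule made Tnfsfm13 the partner, and it was too low to be tested, so no ratio was formed.

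Gm16754 (chr9:21225371-21233046, plus strand), tail to tail with Keap1, had the smallest standard error among the 8 largest falls. It measured 1.66, 1.62 and 1.48 FPKM in the 3 cisplatin libraries and 7.79, 7.91 and 8.12 FPKM in the 3 control libraries (log2 difference -2.26, SE 0.07, adjusted p = 9.61e-07). Keap1, the adaptor that marks the antioxidant factor NRF2 for degradation, was only slightly lower, at 17.1 ± 0.714 FPKM with cisplatin and 22.6 ± 0.256 FPKM in the controls (SD, n = 3; log2 difference -0.40, SE 0.04, adjusted p = 1.93e-04). The member and Keap1 thus moved by different amounts (log2 difference of the ratio -1.85, SE 0.17, adjusted p = 0.00151). Their exons share 510 bases.

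Gm15247, inside the microtubule-associated ubiquitin ligase gene Mid1 on the X chromosome, fell from 4.38, 4.88 and 5.01 FPKM to 0.767, 0.30 and 1.07 FPKM (log2 difference -2.71, SE 0.38, adjusted p = 9.25e-04), and Mid1 fell from 1.93 to 0.677 FPKM (log2 difference -1.40). Another member inside Mid1, Gm15726, did not pass (log2 difference -0.27, SE 0.25, adjusted p = 0.397). Gm29539, inside the secreted signalling gene Wnt6, measured 0.285, 0.199 and 0.651 FPKM in the 3 cisplatin libraries and 1.76, 2.2 and 0.989 FPKM in the 3 control libraries (log2 difference -1.92, SE 0.44, adjusted p = 0.00929), while Wnt6 fell by 2.30 on the log2 scale. The pattern differed at Gm44040, which lies inside Itpr1, the gene of an intracellular calcium release channel. Gm44040 measured 0.283, 0.443 and 1.36 FPKM in the 3 cisplatin libraries and 2.87, 3.73 and 2.21 FPKM in the 3 control libraries (log2 difference -2.15, SE 0.50, adjusted p = 0.00945), whereas Itpr1 was higher, at 12.2 ± 0.522 FPKM with cisplatin and 8.35 ± 0.0827 FPKM in the controls (SD, n = 3; log2 difference 0.54, SE 0.05, adjusted p = 8.63e-05). This opposed movement gave a ratio difference of -2.69 (SE 0.48, adjusted p = 0.0180), which no longer passed without cisplatin replicate 2 (adjusted p = 0.0604), control replicate 1 (0.0662) or control replicate 2 (0.0565).

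Among the other 15 members called lower, 2 lay opposite genes of the hypoxia list. Gm12867, inside the glucose transporter gene Slc2a1, measured 1.49, 1.98 and 1.96 FPKM in the 3 cisplatin libraries and 4.23, 4.45 and 5.42 FPKM in the 3 control libraries (log2 difference -1.33, SE 0.15, adjusted p = 3.05e-04), and Slc2a1 fell further (log2 difference -2.34; log2 difference of the ratio 1.01, SE 0.23, adjusted p = 0.0356). Gm12454, head to head with the carbonic anhydrase gene Car9, measured 0.828, 0.697 and 0.855 FPKM in the 3 cisplatin libraries and 2.28, 1.73 and 2.14 FPKM in the 3 control libraries (log2 difference -1.26, SE 0.17, adjusted p = 7.19e-04), and Car9 itself did not pass (log2 difference -0.59, adjusted p = 0.157). A further 4 pairs, of which 3 are named here after their values were seen, had both genes called lower. They were Gm16170 with the ubiquitin ligase gene Trim7 (-1.72 and -1.87 on the log2 scale), Gm30177 with the neuronal surface protein gene Nrn1 (-1.25 and -1.63), Gm43500 with Mlxipl, a glucose-responsive transcription factor (-1.31 and -2.93), and A530020G20Rik with Slc44a3 (-1.79 and -2.61), which is described with the head-to-head pairs. Another 3 members, chosen in the same way, fell beside a partner that did not pass as a 2-fold change. Gm16008 fell by 1.45 across Tnfrsf18, the gene of the T-cell co-stimulatory receptor GITR (0.05, adjusted p = 0.332). Gm19610 fell by 1.58 beside Ereg, the growth factor epiregulin (-0.16), and Gm10369 by 1.56 inside the LIM kinase gene Limk1 (-0.27).

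The rises were smaller than the largest falls. Gm12932 (chr4:125082857-125084947, minus strand), which no gene of the other strand overlaps, headed them with 1.69, 2.53 and 1.89 FPKM in the 3 cisplatin libraries and 0.43, 0.646 and 0.578 FPKM in the 3 control libraries (log2 difference 1.71, SE 0.22, adjusted p = 6.99e-04). Gm12932 passed the level filter only through cisplatin, and between 8 and 52 reads lay behind each of these values. Gm12764 (chr7:34388665-34394779, plus strand) is head to head with Lsm14a, a component of RNA processing bodies. It measured 1.7, 3.86 and 3.3 FPKM in the 3 cisplatin libraries and 0.702, 1.03 and 0.792 FPKM in the 3 control libraries (log2 difference 1.64, SE 0.31, adjusted p = 0.00415). Lsm14a was near level at 28.1 ± 0.166 FPKM with cisplatin and 27.0 ± 0.163 FPKM in the controls (SD, n = 3), and the ratio passed the test (log2 difference of the ratio 1.58, SE 0.35, adjusted p = 0.0341).

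5830468F06Rik (chr8:15015092-15018907, minus strand) and Gm4610 (chr3:122377097-122391811, minus strand) had at least 33 reads in every library. The first, inside Kbtbd11, measured 5.09, 3.44 and 3.41 FPKM in the 3 cisplatin libraries and 1.27, 1.48 and 1.12 FPKM in the 3 control libraries (log2 difference 1.54, SE 0.19, adjusted p = 4.86e-04), and Kbtbd11 was higher by 0.73 on the log2 scale. Gm4610 measured 4.37, 5.07 and 3.89 FPKM in the 3 cisplatin libraries and 1.21, 1.84 and 1.76 FPKM in the 3 control libraries (log2 difference 1.42, SE 0.18, adjusted p = 5.70e-04). Its partner Bcar3, an adaptor of integrin and antioestrogen-resistance signalling, rose by a like amount, at 4.89, 5.28 and 5.58 FPKM with cisplatin and 2.07, 1.81 and 1.86 FPKM in the controls (log2 difference 1.41, SE 0.09, adjusted p = 2.03e-05). The ratio of this pair did not pass (log2 difference 0.02, adjusted p = 0.974), and their exons do not overlap.

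Gm17173 (chr14:44972268-45006900, minus strand) encloses Ptger2, which encodes the prostaglandin E2 receptor EP2. Gm17173 measured 1.37, 1.67 and 1.99 FPKM in the 3 cisplatin libraries and 0.824, 0.407 and 0.45 FPKM in the 3 control libraries (log2 difference 1.47, SE 0.29, adjusted p = 0.00458). Ptger2 measured 9.65, 9.97 and 9.64 FPKM with cisplatin and 4.19, 4.34 and 3.95 FPKM in the controls and rose (log2 difference 1.21, SE 0.06, adjusted p = 4.59e-06). Each control library of both genes lay below each cisplatin library, and Gm17173 passed the level filter only through cisplatin. The ratio did not pass (log2 difference 0.26, adjusted p = 0.615), and 246 exonic bases are shared.

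Of the other large rises, Gm45510, inside the zinc-finger gene Zc3h4, measured 2.37, 2.7 and 1.31 FPKM in the 3 cisplatin libraries and 0.94, 0.68 and 0.358 FPKM in the 3 control libraries (log2 difference 1.57, SE 0.39, adjusted p = 0.0123). Gm45820, inside the endosomal sorting gene Tom1, measured 3.24, 3.17 and 6.82 FPKM in the 3 cisplatin libraries and 1.84, 1.57 and 1.08 FPKM in the 3 control libraries (log2 difference 1.44, SE 0.33, adjusted p = 0.00957), so that cisplatin replicate 3 stood well above its companions. Gm31172, inside the interferon regulatory factor gene Irf2, measured 2.12, 1.22 and 2.6 FPKM in the 3 cisplatin libraries and 0.83, 1.04 and 0.305 FPKM in the 3 control libraries (log2 difference 1.40, SE 0.45, adjusted p = 0.0352). The call of Gm31172 rested on few reads (3 to 27 per library) and was lost without cisplatin replicate 1 (adjusted p = 0.0948), cisplatin replicate 3 (0.112), control replicate 1 (0.0539) or control replicate 3, where the log2 difference was 0.95 (adjusted p = 0.0596). Scaled to the T-cell list, the 2 members still called higher were Gm12932 and Gm12764, and the other 6 of the 8 largest rises lost the call. With a pseudocount of 1, Gm12932, Gm45510, Gm17173 and Gm31172 fell short of a 2-fold change, as did Gm29539 among the falls.

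**Figure D2:**
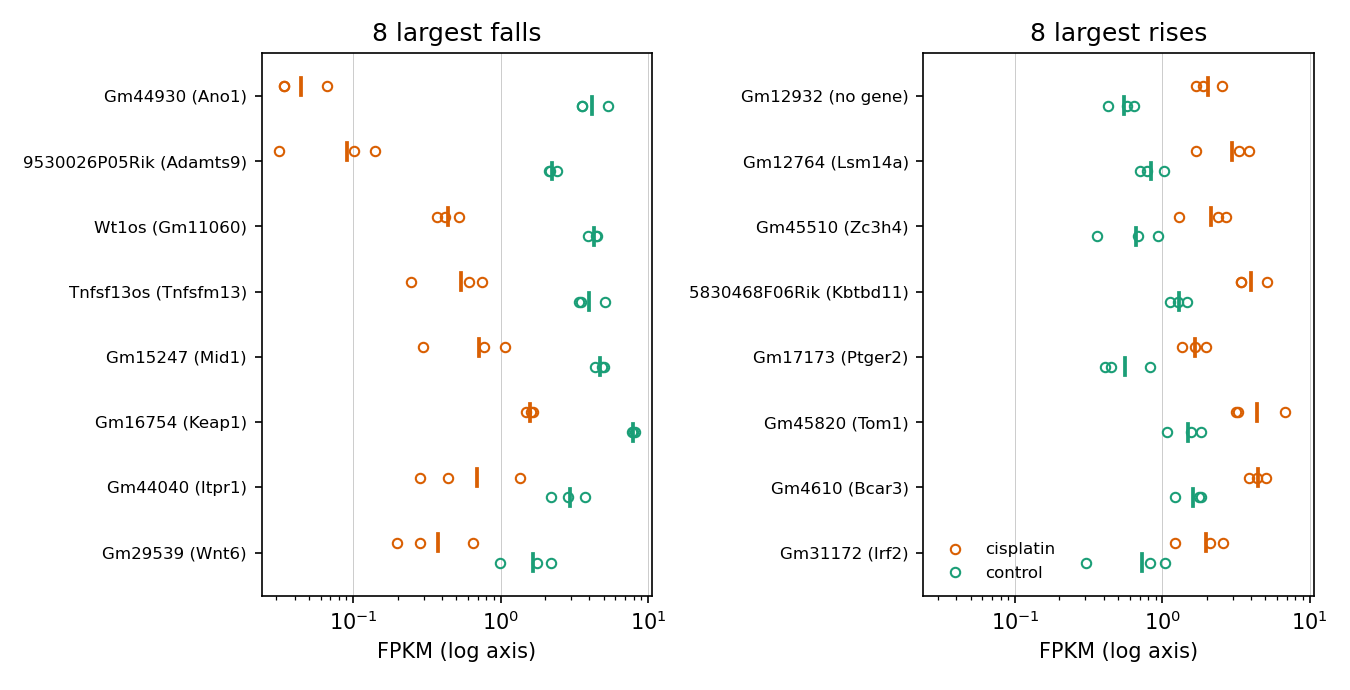
FPKM (log axis) of the 8 members with the largest falls (left) and the 8 with the largest rises (right), with the partner gene in parentheses. Circles are single libraries and vertical ticks the means of 3 libraries. The groups overlap in none of the 16 members because non-overlap was a condition for choosing them.

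Of the members opposite genes of the T-cell list, 3 are described here, and 1 of them rose. Gm37469, inside Cd247 (the CD3 zeta chain), measured 3.54, 2.85 and 4.06 FPKM in the 3 cisplatin libraries and 1.72, 1.2 and 1.35 FPKM in the 3 control libraries (log2 difference 1.23, SE 0.18, adjusted p = 0.00116), and Cd247 was higher by 0.77 on the log2 scale. A630014C17Rik, head to head with the transcription factor gene Tcf7, measured 3.16, 3.63 and 3.29 FPKM in the 3 cisplatin libraries and 1.79, 1.97 and 1.51 FPKM in the 3 control libraries and missed the 2-fold limit (log2 difference 0.91, SE 0.12, adjusted p = 8.21e-04). Gm48719, inside Cd3e, measured 10.8 ± 0.865 FPKM with cisplatin and 9.53 ± 3.05 FPKM in the controls (SD, n = 3) and did not pass (log2 difference 0.23, SE 0.22, adjusted p = 0.418). In none of these 3 pairs did the ratio of member to partner pass the test, with log2 differences of 0.46, 0.25 and -0.09. Further rises lay opposite haematopoietic genes, chosen here after their values were seen. Gm12000, inside the lymphoid transcription factor gene Ikzf1, rose by 1.21 from 3.0 to 7.01 FPKM (adjusted p = 3.27e-04), beside a log2 difference of 0.76 in Ikzf1. Gm17017, tail to tail with the leukocyte chromatin reader gene Sp140, rose by 1.16 (adjusted p = 0.00156), beside 0.50 in Sp140.

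The 6 members with the highest mean levels were all higher with cisplatin by adjusted p, and 2 of them by at least 2-fold. Gm26740 (chr10:22187013-22302835, minus strand) was the most abundant. It measured 34.7, 36.1 and 36.2 FPKM in the 3 cisplatin libraries and 16.1, 17.5 and 17.2 FPKM in the 3 control libraries (log2 difference 1.07, SE 0.04, adjusted p = 2.47e-06), and its groups were far apart relative to their spread. Gm45552 measured 28.4, 25.1 and 22.9 FPKM in the 3 cisplatin libraries and 12.4, 12.9 and 11.9 FPKM in the 3 control libraries (log2 difference 1.03, SE 0.08, adjusted p = 5.72e-05), and without cisplatin replicate 1 its log2 difference was 0.95. A530040E14Rik measured 24.8, 26.1 and 23.9 FPKM in the 3 cisplatin libraries and 12.7, 11.8 and 15.2 FPKM in the 3 control libraries and stayed short of 2-fold (log2 difference 0.92, SE 0.09, adjusted p = 2.04e-04). The gene around it on the other strand, C130026I21Rik, rose, with 2.91, 2.2 and 2.66 FPKM with cisplatin and 0.557, 0.549 and 1.47 FPKM in the controls (log2 difference 1.61, SE 0.36, adjusted p = 0.00833).

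Tug1, a long non-coding RNA found in most tissues, was the longest member at 9734 bases and had the most reads. It measured 21.1, 20.2 and 20.2 FPKM in the 3 cisplatin libraries and 18.3, 18.6 and 17.8 FPKM in the 3 control libraries (log2 difference 0.17, SE 0.04, adjusted p = 0.00706), a small difference in which the groups did not overlap. Morc2a, a chromatin-silencing ATPase that starts 179 bases away on the other strand, was lower, at 12.4 ± 0.286 FPKM with cisplatin and 15.3 ± 0.838 FPKM in the controls (SD, n = 3; log2 difference -0.30, SE 0.05, adjusted p = 0.00246), and the ratio did not pass (adjusted p = 0.103). Gm17201 inside Ankrd52 (log2 difference 0.29, SE 0.07, adjusted p = 0.0117) and 4930579G18Rik inside Acin1 (log2 difference 0.38, SE 0.08, adjusted p = 0.00511) were likewise slightly higher. Centred on the T-cell list, the differences of Tug1, Gm17201 and 4930579G18Rik turned negative (-0.40, -0.28 and -0.19), so their direction rests on the scale.

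Of 40 antisense and related RNAs with a known name, 36 were in the table, 19 carried the biotype antisense and 3 were members, namely Wt1os, Tug1 and Airn. Airn (chr17:12741311-12860136, plus strand), the RNA that silences Igf2r on the paternal allele, measured 2.08, 1.97 and 2.16 FPKM in the 3 cisplatin libraries and 3.04, 2.16 and 2.18 FPKM in the 3 control libraries. Its groups overlapped and it did not pass (log2 difference -0.22, SE 0.15, adjusted p = 0.251). Igf2r, head to head with it, was lower in every cisplatin library, at 25.5, 26.6 and 26.3 FPKM with cisplatin and 34.7, 33.3 and 33.6 FPKM in the controls (log2 difference -0.37, SE 0.03, adjusted p = 1.14e-04). The ratio of Airn to Igf2r did not pass (log2 difference 0.15, adjusted p = 0.695). Allelic origin was not measured.

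Next, members were set beside their partners. Of the 229 members whose partner was tested, 204 were below it in mean FPKM, with a median member-to-partner level of 0.174 (0.180 with cisplatin and 0.154 in the controls). Member and partner differences had the same sign in 156 pairs (68.1%), and across pairs Pearson's r was 0.62 and Spearman's rho 0.52. These correlations describe genes measured in the same 6 libraries, in which reads of a pair cannot be fully separated, and are not tests. They were 0.63 and 0.58 for the 142 pairs with shared exonic bases and 0.61 and 0.43 for the 87 pairs without. Where the partner was called lower (23 pairs), 10 members were called lower and 1 higher. Where the partner was called higher (8 pairs), 4 members were called higher and 0 lower. Among these concordant pairs, 9 of 10 falling members and 2 of 4 rising members averaged under 1 FPKM in one group, so the level filter had fixed their direction and these counts are no support for a shared direction. Where the partner was called in neither direction (198 pairs), 25 members were called higher and 9 lower. By geometry, 18 of 140 members inside their partner rose (12.9%) and 9 fell (6.43%). Of 53 head to head, 8 rose (15.1%) and 6 fell (11.3%), and of 44 tail to tail, 2 rose (4.55%) and 5 fell (11.4%). Of all members, 12.7% rose and 8.58% fell, and a difference between the geometries was not tested.

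**Figure D3:**
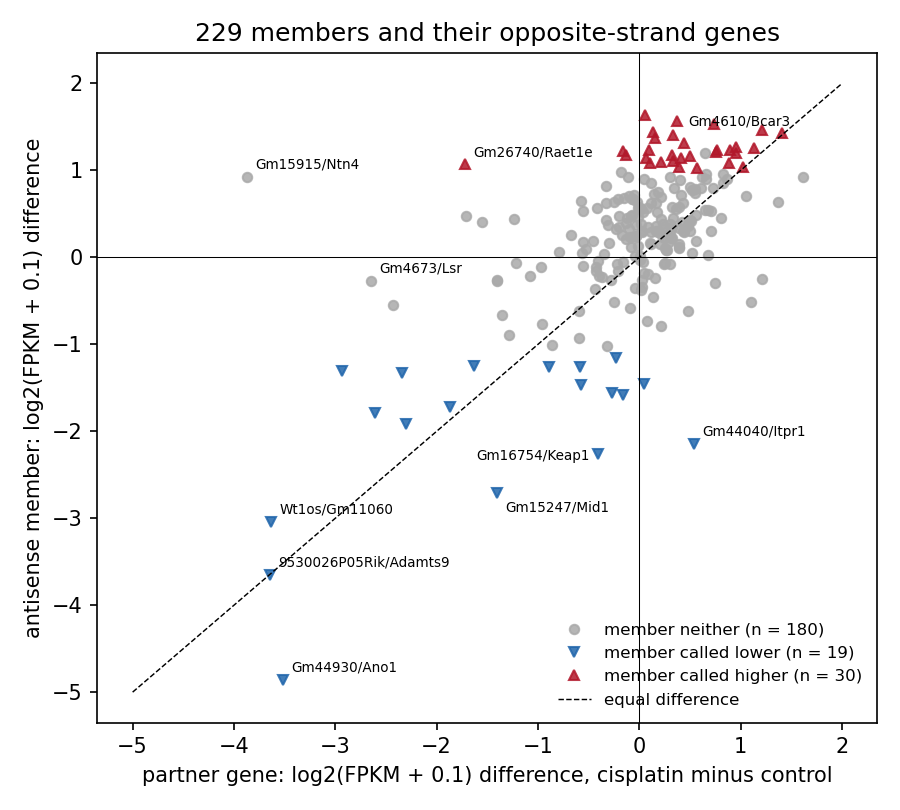
Log2(FPKM + 0.1) difference of 229 antisense members (vertical) against that of the gene on the other strand (horizontal), both cisplatin minus control. Symbols show whether the member was called lower, higher or neither, and the dashed line marks equal differences. Gm44930, Wt1os and 9530026P05Rik, which passed the level filter only through the controls, fell with their partners, whereas Gm26740 rose beside a falling Raet1e.

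In 4 head-to-head pairs both genes were called, in each pair in the same direction. In 3 of them (9530026P05Rik, A530020G20Rik and 1700097N02Rik) the member had passed the level filter only through the group where it was high, which fixed its direction. Besides 9530026P05Rik and Adamts9, A530020G20Rik measured 0.606, 0.992 and 0.654 FPKM in the 3 cisplatin libraries and 3.0, 2.65 and 2.73 FPKM in the 3 control libraries (log2 difference -1.79, SE 0.19, adjusted p = 2.76e-04), and the choline transporter-like gene Slc44a3 measured 0.654, 0.364 and 0.39 FPKM with cisplatin and 3.56, 3.05 and 3.29 FPKM in the controls (log2 difference -2.61, SE 0.22, adjusted p = 7.82e-05). These 2 genes share 349 exonic bases. 1700097N02Rik (chr17:30622441-30626905, minus strand) measured 1.46, 1.11 and 1.86 FPKM in the 3 cisplatin libraries and 0.394, 0.553 and 0.733 FPKM in the 3 control libraries (log2 difference 1.26, SE 0.28, adjusted p = 0.00854), on 10 to 51 reads per library. Its partner Dnah8, an axonemal dynein heavy chain, measured 5.7, 6.11 and 6.37 FPKM with cisplatin and 2.77, 2.58 and 2.76 FPKM in the controls (log2 difference 1.14, SE 0.07, adjusted p = 2.03e-05). Gm19261 measured 8.54, 8.34 and 11.7 FPKM in the 3 cisplatin libraries and 3.52, 5.94 and 4.47 FPKM in the 3 control libraries (log2 difference 1.04, SE 0.21, adjusted p = 0.00552), and its log2 difference was 0.88 without cisplatin replicate 3 and 0.86 without control replicate 1. Its partner Ms4a6b, a tetraspanning membrane protein of lymphocytes, measured 130.4, 127 and 133 FPKM with cisplatin and 64.0, 62.8 and 64.5 FPKM in the controls (log2 difference 1.03, SE 0.03, adjusted p = 5.37e-07). In none of the 4 pairs did the ratio pass the test, with log2 differences of -0.01, 0.82, 0.13 and 0.01.

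The windows of 1700097N02Rik and Dnah8 are shown because they overlap and face away from each other, so that both RefSeq starts lie in one short stretch of chromosome 17. They span chr17:30626856-30627155, minus strand for the member and chr17:30626686-30626985, plus strand for Dnah8, again from RefSeq on GRCm38.p6 and 5′ to 3′ on each gene's strand. Capitals mark the single match to GGGCGG, which reads CCGCCC on the Dnah8 strand and lies in the part that both windows share.
1700097N02Rik: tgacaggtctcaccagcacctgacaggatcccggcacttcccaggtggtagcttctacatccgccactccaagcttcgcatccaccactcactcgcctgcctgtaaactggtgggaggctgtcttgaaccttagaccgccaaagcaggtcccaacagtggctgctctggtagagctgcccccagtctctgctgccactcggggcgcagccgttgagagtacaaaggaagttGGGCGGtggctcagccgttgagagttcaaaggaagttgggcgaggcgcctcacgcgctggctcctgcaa
Dnah8: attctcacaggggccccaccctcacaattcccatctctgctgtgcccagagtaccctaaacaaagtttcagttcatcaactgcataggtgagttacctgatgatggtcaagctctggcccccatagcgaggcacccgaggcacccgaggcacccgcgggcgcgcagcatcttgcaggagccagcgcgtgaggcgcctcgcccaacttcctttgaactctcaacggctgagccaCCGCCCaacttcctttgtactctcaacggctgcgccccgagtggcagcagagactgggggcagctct
The other 5 motifs were not found in either window. The RefSeq start of the member is that of the table. The RefSeq start of Dnah8 is not that of the table, in which Dnah8 and the member overlap by 2552 bases. RefSeq windows were found for 107 of the 268 members.

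Whether a member moved by a different amount than its partner was tested on the difference of their log2 values in each library, over all 404 antisense-partner pairs of tested genes. The ratio was higher with cisplatin in 22 of the 229 member pairs (9.61%, against 8.17% of the 404 pairs) and lower in 8 (3.49%, against 2.23%). The 404 pairs include the 229 member pairs and held 33 higher and 9 lower ratios in all. Member pairs thus supplied most of these calls, so the 404 pairs are not an independent background. These counts were sensitive to single libraries. Without one library at a time, the higher ratios numbered 14 (cisplatin replicate 1), 12 (cisplatin replicate 2), 13 (cisplatin replicate 3), 7 (control replicate 1), 9 (control replicate 2) and 19 (control replicate 3), and the lower ones 3, 4, 5, 2, 1 and 4 in the same order.

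In 4 of the 5 largest called ratio differences the partner fell while the member did not, and the exception was Gm44040, described above. Ntn4, the laminin-related guidance factor netrin-4, measured 1.97, 1.77 and 1.91 FPKM with cisplatin and 29.8, 28.5 and 28.3 FPKM in the controls (log2 difference -3.87, SE 0.06, adjusted p = 8.26e-08). Gm15915, inside it, measured 1.84, 1.86 and 1.9 FPKM in the 3 cisplatin libraries and 0.734, 1.69 and 0.646 FPKM in the 3 control libraries, and no control library reached the lowest cisplatin library, although the difference missed the test (log2 difference 0.92, SE 0.33, adjusted p = 0.0521). The ratio therefore differed strongly (log2 difference of the ratio 4.80, SE 0.36, adjusted p = 0.00110). With control replicate 2 left out, Gm15915 itself passed, with a log2 difference of 1.32 (adjusted p = 0.00125).

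Gm26740 was the one member called in the direction opposite to its called partner. The partner Raet1e, a ligand of the activating receptor NKG2D, measured 0.658, 1.61 and 1.04 FPKM with cisplatin and 4.04, 3.51 and 3.43 FPKM in the controls (log2 difference -1.72, SE 0.29, adjusted p = 0.00215), against the rise of Gm26740 given above (log2 difference of the ratio 2.79, SE 0.31, adjusted p = 0.00302). Another NKG2D ligand gene that Gm26740 spans on the other strand, H60b, moved the other way, with 6.16, 7.34 and 7.2 FPKM with cisplatin and 4.97, 2.69 and 3.14 FPKM in the controls (log2 difference 0.96, SE 0.22, adjusted p = 0.00854). Gm26740 also overlaps the genes Gm26528 and Hmgb1-ps8 on its own strand, so its counts carry that uncertainty.

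A further pair of members with little difference lay opposite falling epithelial or endothelial genes. Gm4673 measured 2.66, 2.54 and 2.58 FPKM in the 3 cisplatin libraries and 3.01, 3.71 and 2.79 FPKM in the 3 control libraries (log2 difference -0.27, SE 0.12, adjusted p = 0.0938), and its tail-to-tail partner Lsr, a lipoprotein receptor of tricellular junctions, measured 5.38, 4.29 and 5.06 FPKM with cisplatin and 31.1, 33.1 and 29.2 FPKM in the controls (log2 difference -2.65, SE 0.09, adjusted p = 1.27e-06). Their exons share 946 bases, and the ratio differed (log2 difference of the ratio 2.38, SE 0.18, adjusted p = 0.00110). Gm13012 measured 9.74, 10.8 and 9.47 FPKM in the 3 cisplatin libraries and 6.33, 6.96 and 8.31 FPKM in the 3 control libraries (log2 difference 0.47, SE 0.11, adjusted p = 0.00829), and Ece1, the endothelin-converting enzyme gene around it, measured 12.2, 12.5 and 11.6 FPKM with cisplatin and 38.6, 41.6 and 39.5 FPKM in the controls (log2 difference -1.71, SE 0.04, adjusted p = 3.96e-07). This ratio differed too (log2 difference of the ratio 2.19, SE 0.18, adjusted p = 0.00121). The difference of Gm13012 turned to -0.09 under the T-cell centring.

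Other ratios that were called higher, named after their values were seen, split by which gene moved. In 2810402E24Rik with Usp54, Gm29417 with Cxxc5, Gm16104 with Nfic, Gm26586 with the tropomyosin gene Tpm4 and Gm28809 with the tetraspanin gene Cd9, the partner was called lower (log2 differences of -1.55, -2.43, -1.24, -1.41 and -1.22) and the member was not called (0.41, -0.54, 0.44, -0.26 and -0.06). In Gm20324 with Tcf20 and Gm31597 with Sult2b1, the member rose (1.37 and 1.23) beside a partner near level (0.15 and -0.16). Gm20324 was well covered, at 11.0 ± 1.29 FPKM with cisplatin and 4.2 ± 0.227 FPKM in the controls (SD, n = 3; adjusted p = 2.71e-05).

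**Figure D4:**
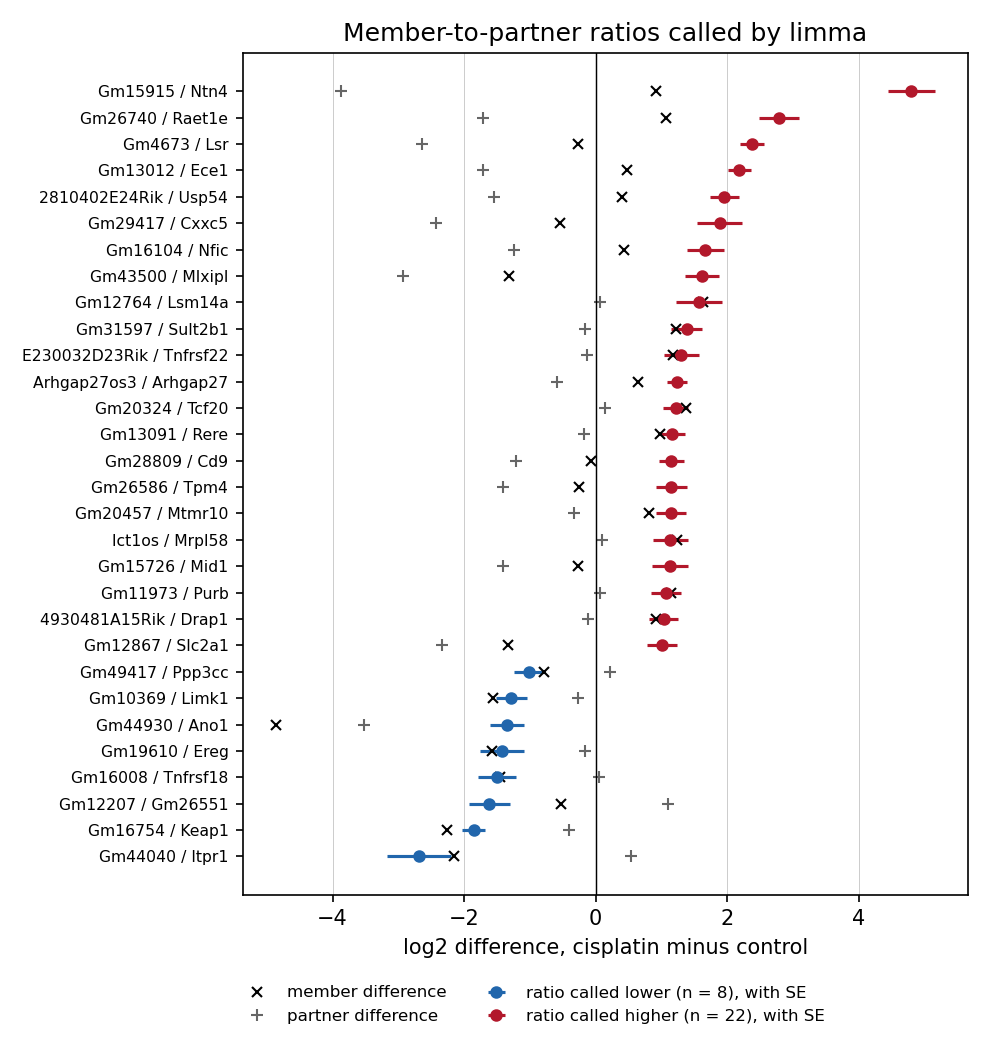
The 30 member pairs whose member-to-partner ratio was called, with the log2 difference of the ratio and its standard error (filled circles), the difference of the member (crosses) and that of the partner (plus signs), all cisplatin minus control. Toward the top, Ntn4 fell while Gm15915 missed the test, and Gm26740 rose beside a falling Raet1e. At the bottom, Gm44040 fell beside a higher Itpr1.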

How the data were processed

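RNA was measured in 6 libraries of mouse T cells, 3 with cisplatin and 3 controls, grouped by the treatment label. Per the labels, the authors trimmed reads with fastp, aligned them to mm10 with HISAT2 2.0.5 and counted them with featureCounts 1.5.0-p3, whereas the study's methods name another aligner; the strand setting and the treatment of reads that map to several places are not given in the sources used here. The deposited values are FPKM per gene. Multiplied by gene length they gave whole reads for 100% of values (within 0.1 of a read), which served for depth and for a voom alternative. The depth implied by FPKM was 1.03 to 1.05 times these reads with cisplatin and 0.976 to 0.982 times in the controls. The scaling thus differed by group, and rescaling to the rebuilt reads moved the median log2 difference of all tested genes from 0.03 to 0.11.

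The members, gene lists and tests were chosen with earlier results of these data known. The members are the antisense genes averaging 1 FPKM or more. Log2(FPKM + 0.1) was fitted with limma 3.58.1 in R 4.3.3 (variance trend, no block) on the 15874 genes that averaged 0.5 FPKM or more, and p-values were adjusted by Benjamini-Hochberg over all of them. Fold changes on this scale understate those of low genes. A call needed an adjusted p under 0.05 and a 2-fold change. The partner was the gene overlapping on the other strand, protein-coding first, then by longest overlap, then by level, and member-to-partner ratios were fitted in the same way over 404 pairs. Both fits were also run on simulated data with few changed genes and a common spread for all genes. That setting is simpler than these data, so the run does not measure how accurate the calls are. As a check for a library deposited again, replicates of a group were compared and differed by more than counting noise (5.35 to 6.44 times that of sampling alone, as chi-square over its degrees of freedom). This does not show that they came from separate cultures.

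Coordinates are those of the table (GRCm38), of which 266 of 268 members matched GENCODE exactly; exon overlaps came from that annotation. Named members were the 8 largest falls and 8 largest rises among called members whose groups did not overlap, the 6 with the highest level, those with a known name, the 5 with the largest called ratio difference, those called against a called partner, up to 4 called head-to-head pairs and the members at the level limit. Alternatives covered the pseudocount, the filter, the scaling, the variance prior, voom, the partner rule, the replicate block and leaving out each library. The numbers of the libraries did not pair them (correlations of same-numbered deviations of 0.02, -0.06 and -0.02). Some results on single genes are not reported here.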

Additional observations from a re-analysis of the deposited data

How the results depend on the processing

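The members called lower and higher with cisplatin (23 and 34) stayed within 21 to 24 and 32 to 36 when 1 library was left out, and all tested genes called (2687) within 2600 to 2692. The ratios called lower (8) and higher (22) ranged from 1 to 5 and from 7 to 19 without 1 library, as given with their values in the report. With a pseudocount of 1, 11 members were called lower and 9 higher, 1762 genes were called in all and 4 ratios were lower. With a minimum mean of 5 FPKM, which leaves 37 members, 1 was lower and 9 were higher, 1145 genes were called, and 0 ratios were lower and 5 higher. Of members with both group means of at least 1 FPKM, 6 were lower and 21 higher. Quantile normalization gave 54 members higher, and it moved the median log2 difference of all genes to 0.16, against 0.11 after rescaling to the rebuilt reads and -0.54 after centring on the T-cell list. That centring gave 39 members lower and 2 higher, shared 25 of the 57 calls and reversed Gm17201 (-0.28), Tug1 (-0.40), 4930579G18Rik (-0.19) and Gm13012 (-0.094). By adjusted p alone, 87 members were higher and 8963 genes were called. Voom on the rebuilt reads called 21 members lower and 48 higher. Pairs with shared exons held 5 lower and 13 higher ratios. With the replicate number as a block, 23 members were lower and 33 higher, while 2 ratios were lower and 9 higher; the numbers share no label of a common mouse or day, and no cisplatin library correlated best with the control library of its own number. In none of the alternatives fitted over the members did any of the 57 calls change sign. Of 623 comparisons of 36 named values with an alternative, 579 kept direction and side of the threshold, 31 lost the call, 9 gained it and 4 reversed. Causes were not tested. A median of 64 reads per member and library limits the precision.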

Other observations

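In all, 12 members shared 6 partner genes, 2 members to each. Gm16158 and Gm16157, both opposite Fam169b, rose by 1.20 and 1.27 on the log2 scale (adjusted p = 0.000108 and 0.00183 in limma), beside 0.95 in Fam169b. Gm28914 and Gm28913, both opposite the kinase gene Ikbke, were higher by 0.86 and 0.95 and missed the 2-fold limit, beside 0.82 in Ikbke. Gm26935 and Tmem147os, both opposite Gapdhs, had differences of -0.93 and -0.62 and were not called. Gm10552 and Gm17017, both opposite Sp140, had differences of 0.81 (not called) and 1.16 (called higher), beside 0.50 in Sp140. Gm15265 and A730011C13Rik, both opposite Pi4kb, had differences of 0.49 and 0.68 and were not called, beside -0.08 in Pi4kb. Gm15247 and Gm15726, both opposite Mid1, had differences of -2.71 (called lower) and -0.27 (not called), beside -1.40 in Mid1. Members opposite one gene share its locus and are not independent of each other.

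The antisense genes between 0.5 and 1 FPKM, which the level limit leaves out, numbered 200, with a median log2 difference of 0.19. Of these, 15 (7.5%) were called higher and 19 (9.5%) lower. The 37 members of at least 5 FPKM held 9 called higher (24.3%) and 1 called lower (2.70%), with a median of 0.47. Of all tested genes, at any level, 4.11% were called higher and 12.8% lower.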
